A study of Mus musculus with 2 samples.

Results

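Elk4, Asb1, Ip6k1 and Phf20 are protein-coding mouse genes that are known as sources of pre-pachytene piRNAs. They were taken by name, 4 genes beside 5571 coding genes that had at least 200 sense reads in the pooled tables. Their reads are those of 24 to 32 nt that match an annotated transcript of the gene with 0 mismatches. The labels describe small RNA of testes at 23 days post partum (dpp) from C57BL/6 mice, with 1 sample of Stambp-ps1+/- and 1 of Stambp-ps1-/- genotype. Stambp-ps1 is a pseudogene. How its allele was made and how many animals gave each sample are not stated in the sources used. Both deposited tables, each a list of distinct reads with their counts, stand under the Stambp-ps1-/- sample, while their names carry the words KO and het. Here these are the KO-named table and its het-named partner, and neither was given a genotype.

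piRNAs are germ-line small RNAs that lead PIWI proteins to their targets, and most begin with U. Those of pre-pachytene germ cells come in large part from transposons and from the 3′ UTRs of some mRNAs, and are bound by MILI, which holds shorter piRNAs than MIWI, the partner of many pachytene piRNAs. Genic piRNAs are cut from the mRNA strand, so they lie in sense. Elk4 encodes an ETS transcription factor that binds DNA with serum response factor, and Asb1 an ankyrin repeat protein with a SOCS box, the part that links such proteins to ubiquitin ligases. Ip6k1 encodes a kinase that makes inositol pyrophosphates, and Phf20 a PHD finger protein of a histone acetyltransferase complex.

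There were 54384974 reads in the KO-named table against 62773871 reads in the het-named one, all of 18 to 32 nt, of which 79.4% and 74.9% had 24 to 32 nt. Each table is 1 library, so no difference between them could be tested. Levels are given in RPM, the reads per 1000000 reads sequenced in that table, and the intervals given are exact 95% binomial intervals. Intervals and floors cover counting error only, since reads that carry no molecular identifier may be copies of one molecule, and the floor of 3 reads was 0.0552 RPM in the KO-named table against 0.0478 RPM in the het-named one. At 18 to 20 nt lay 4.08% of the reads in the KO-named table against 7.83% in the het-named one, so the tables also differ in their share of short RNA. In whole testis, fewer cells of a type and less RNA per cell cannot be told apart. The germ-cell miRNA Mir34c stood at 5482 RPM in the KO-named table against 3963 RPM in the het-named one, the smooth muscle miRNA Mir143 at 8201 and 7059 RPM, and the liver miRNA Mir122 at 0 reads in both. The Sertoli cell miRNA Mir202 stood at 97.2 and 100 RPM, the blood miRNA Mir451a at 3.51 and 1.86 RPM and the epithelial miRNA Mir429 at 81.1 and 47.9 RPM. Mir34b, Mir449a, Mir145a, Mir223 and Mir200b were higher in the KO-named table. Antisense reads of Stambp-ps1 (Gm18009 in the annotation) numbered 24 in the KO-named table against 2700 in the het-named one.

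The following reads stood at the starts with most reads in each transcript that do not overlap, and show what the piRNAs of these genes look like. All lie in the 3′ UTR and match 1 gene, the letters are DNA letters from the deposited tables (T for U), and the capital marks the first base. For Phf20 the start with most reads alone is shown, because its next such starts held 4 reads or fewer.
Elk4, first: Tcacaactttgtaagaaaccatgaggcct
Elk4, the second: Tagtaagttcgagactagcttagact
Elk4, the third: Tgaggcattgtagttctaattctgctc
Asb1, first: Tctgaatgtgacacagcatcggcatggact
Asb1, the second: Tactcagcagacttctgagctctggttacc
Asb1, the third: Taggaagttgatgtgacttcggtgaggact
Ip6k1, first: Tgagagaaactgttaacgaatggcataatt
Ip6k1, the second: Tgtgacggatccaagtcagtcttctgaccc
Ip6k1, the third: Taaaagaaatgtttttagctgtagcct
Phf20, first: Tgatgattgttagatactaatttggggcc

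On GRCm38, all on the + strand, the first Elk4 read lies at chr1:132025777-132025805, the first Asb1 read at chr1:91556469-91556498, the first Ip6k1 read at chr9:108047509-108047538 and the first Phf20 read at chr2:156309163-156309191. The other Elk4 reads lie at chr1:132025715-132025740 and chr1:132026154-132026180, those of Asb1 at chr1:91556642-91556671 and chr1:91556605-91556634, and those of Ip6k1 at chr9:108047576-108047605 and chr9:108046094-108046120. The first Elk4 read, of 29 nt, was counted 163 times in the KO-named table against 147 times in the het-named one. The first Asb1 read, of 30 nt, was counted 2322 and 1721 times, and the first Ip6k1 read, also of 30 nt, 537 and 500 times. The Phf20 read of 29 nt had 13 and 11 counts. The other Elk4 reads, of 26 and 27 nt, lie 2066 and 2505 nt after the stop codon and were counted 58 and 38 times in the KO-named table and 42 and 23 times in its het-named partner. Those of Asb1, both of 30 nt, had 1231 and 1566 against 1085 and 1454 counts, and the Ip6k1 read of 27 nt, which lies 124 nt after the stop codon, had 289 against 276. The second Ip6k1 read had 70 against 54 counts, as its start was mostly read as a longer form that is not shown. Every read shown begins with U and each was found in both tables.

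Asb1 was the richest source among the 4 genes and Phf20 the poorest. Asb1 had 44148 sense reads (812 RPM, 804 to 819) in the KO-named table against 42809 (682 RPM, 676 to 688) in the het-named one. Ip6k1 had 8331 (153 RPM, 150 to 157) and 8864 (141 RPM, 138 to 144). Elk4 had 1760 sense reads (32.4 RPM, 30.9 to 33.9) in the KO-named table against 1683 (26.8 RPM, 25.5 to 28.1) in the het-named one. Phf20 had 83 (1.53 RPM, 1.22 to 1.89) and 100 (1.59 RPM, 1.30 to 1.94), above the floor of 3 reads but under the 200 reads asked of a measured gene. The order Asb1, Ip6k1, Elk4, Phf20 was the same in both tables, with no overlap of the intervals of neighbours.

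How far a read names its gene differed among them. Of the Asb1 reads 99.99% matched no other annotated gene, and of the Elk4 reads 99.3%. For Ip6k1 this was 66.0% and for Phf20 68.3%: 4524 of the Ip6k1 reads and 39 of the Phf20 reads matched over 10 genes, and none of these lay on the transcript used for positions. Counting only reads with 1 gene, Ip6k1 kept 5709 reads in the KO-named table against 5645 in the het-named one, and Phf20 66 and 59. Among 2334 coding genes with at least 200 reads of this kind, a background chosen after values were seen, Asb1 ranked 4, Ip6k1 ranked 22 and Elk4 ranked 110. With reads counted for every gene they match, over the 5571 coding genes, they ranked 19, 687 and 1729. With 1-gene reads Nemp1, another genic source, ranked 1 with 225977 reads, and Wdfy3 ranked 18 with 15439.

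Most reads of all 4 genes began in the 3′ UTR, the part after the coding sequence (CDS). Positions were taken on the coding transcript that held most reads, which carried 81.4% of the Elk4 reads, 99.98% of those of Asb1, 72.2% of those of Ip6k1 and 75.4% of those of Phf20. In Elk4-202, 94.5% of the reads of the KO-named table and 94.1% of the het-named one began in the 3′ UTR, which is 63.2% of the transcript's length. In Asb1-201 the shares were 93.5% and 92.6% for a 3′ UTR that is 80.9% of the length. In Ip6k1-201 they were 86.0% and 84.4% for 61.7% of the length, and with reads of 1 gene alone the pooled share was 93.3%. In Phf20-201 they were 75.4% (63.5 to 84.9) and 65.2% (52.8 to 76.3), for 43.9% of the length. The share was above the length share in every gene and table. The median 3′ UTR share of the 2334 coding genes was 59.4%, and 226 of them had a higher share than Elk4, 324 a higher one than Asb1 and 319 a higher one than Ip6k1, with 1-gene reads. Over the 5571 genes with all matches the median was 64.1%, and 1646, 1728 and 2101 had a higher share. Among the 2925 coding genes with at least 1000 reads, all matches counted, the median was higher, 84.4%. Ip6k1, with a pooled share of 85.2%, lay near that median, so a high share was not particular to these genes.

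Per length, the 3′ UTR was denser in reads than the CDS of the same gene in every gene and table. The 3′ UTR of Elk4 held 8.84 RPM per kb in the KO-named table against 7.37 in the het-named one, its CDS 1.01 and 0.963. The 3′ UTR of Asb1 held 161 and 134 RPM per kb and its CDS 34.6 and 32.4. For Ip6k1 the values were 35.0 and 29.5 in the 3′ UTR and 10.7 and 10.6 in the CDS, and for Phf20 0.380 and 0.285 against 0.0910 and 0.110. The annotated CDS of Asb1-201 is short, 288 nt of 5826, and other coding transcripts of the gene read much of its 5′ UTR as CDS. Counted by the CDS of any coding transcript, 6.83% of the pooled Asb1 reads began in CDS and 0.0978% in 5′ UTR, while the 3′ UTR share stayed at 93.1%.

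The reads of Elk4, Asb1 and Ip6k1 stood in a few peaks, and the fullest bin of each of the 4 genes was the same in both tables. In bins of 100 nt, the 5 fullest bins held 54.0% of the pooled reads of Elk4, 49.5% of those of Asb1, 65.7% of those of Ip6k1 and 46.4% of those of Phf20. In Phf20 the fullest bin alone held 43 reads, and the other 4 held 5 or 6 each, 1 of them in the 5′ UTR. The fullest bin of Elk4 began 2067 nt after the stop codon, with 4.69 RPM in the KO-named table against 3.92 in the het-named one. That of Asb1 began at 1588 nt, with 114 and 82.5 RPM, that of Ip6k1 at 1454 nt, with 29.5 and 24.2 RPM, and that of Phf20 at 1682 nt, with 0.460 and 0.287 RPM. None of the 4 fullest bins lay near the stop codon. As a description, Pearson's r between the tables over these bins, which share the transcript and its bases, was 0.981 for Elk4 (45 bins), 0.993 for Asb1 (59 bins), 0.998 for Ip6k1 (46 bins) and 0.905 for Phf20 (58 bins).

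**Figure D1:**
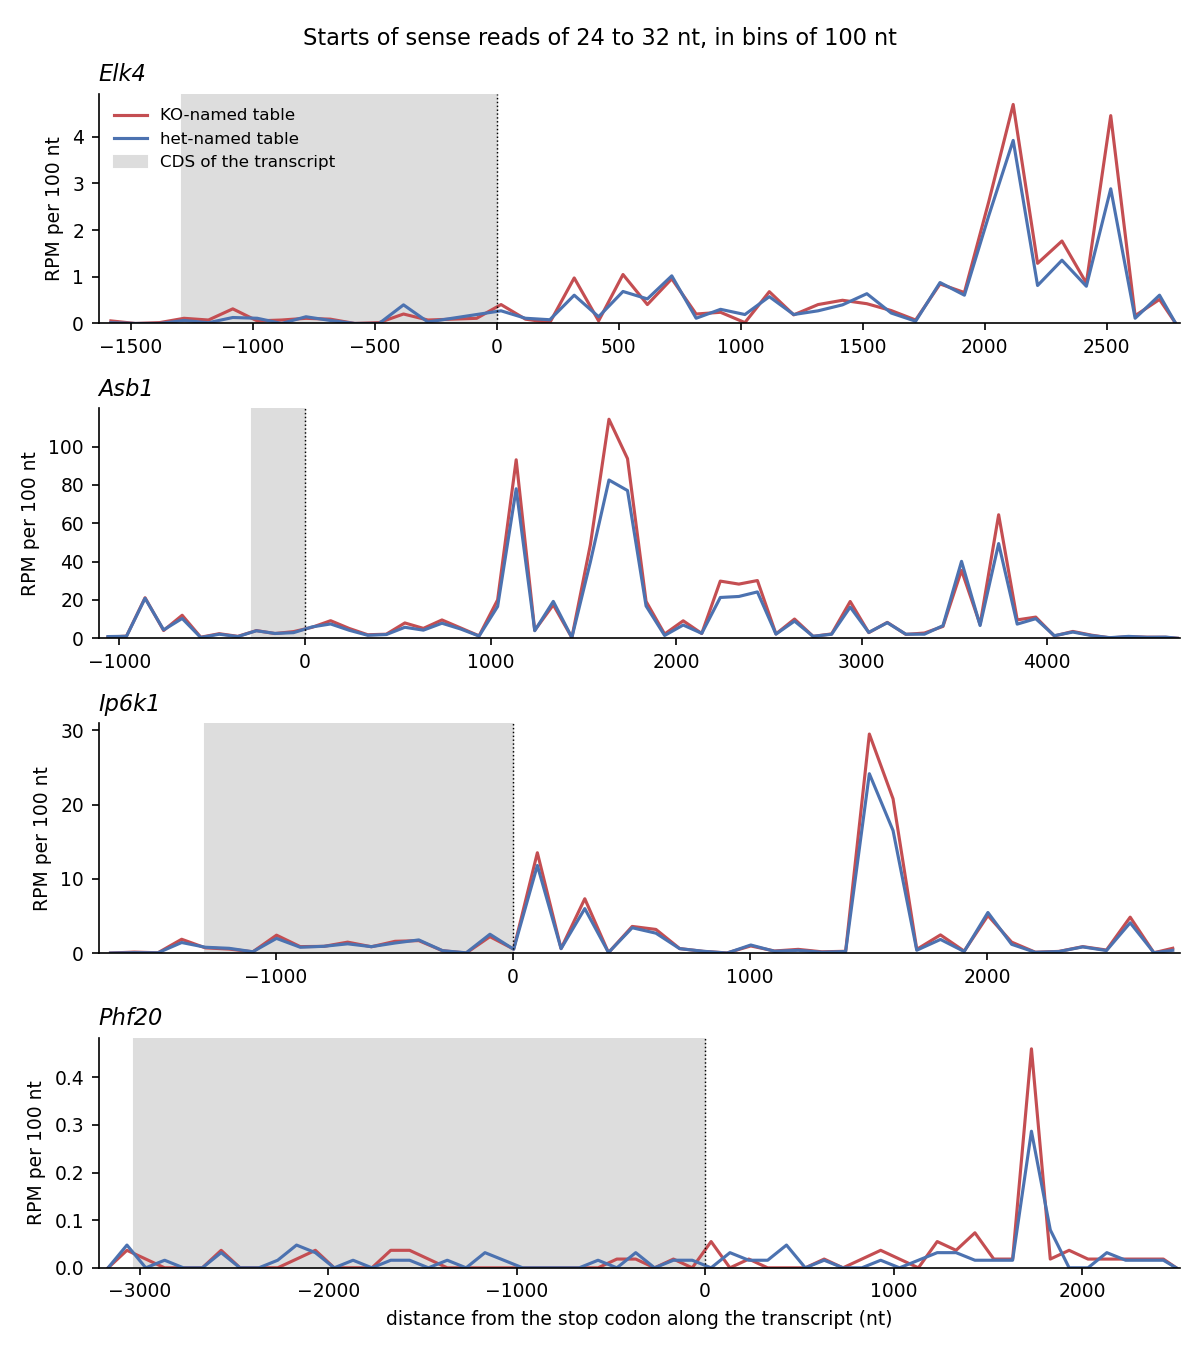
Starts of sense reads of 24 to 32 nt along the coding transcript of each gene, in RPM per bin of 100 nt (y axis) against distance from the stop codon in nt (x axis). The red line is the KO-named table, the blue line the het-named one, and grey marks the annotated CDS; the fullest bins begin 2067 nt (Elk4), 1588 nt (Asb1), 1454 nt (Ip6k1) and 1682 nt (Phf20) after the stop codon in both lines.

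When each 3′ UTR was cut into parts of equal length, a cut chosen after values were seen, the reads fell in different parts. In Elk4 the last part, from base 1868 to base 2800 of the 3′ UTR, held 66.8% of its reads. In Asb1 the middle part, bases 1572 to 3143, held 53.2%, and in Ip6k1 the middle part, bases 939 to 1875, held 55.2%. In Phf20 the last part held 61 of 97 reads. T made up 30.1%, 29.8% and 27.97% of the successive Elk4 parts and 30.6%, 31.2% and 31.5% of those of Asb1. In Ip6k1 it made up 24.4%, 30.2% and 27.1%, so the middle part was the richest in T as well as in reads, and in Phf20 26.9%, 33.4% and 30.4%.

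Alternative ends of the transcripts also carried reads. Of the 641 Elk4 reads that were not on Elk4-202, 627 lay in the last exon of Elk4-207, a transcript annotated for nonsense-mediated decay, at chr1:132031564-132032612, which starts 5115 nt beyond the end of Elk4-202. This exon held 327 reads in the KO-named table against 300 in the het-named one (5.73 and 4.56 RPM per kb), all with 1 gene, and 88.0% of them began with U. Asb1-202 ends early in the 3′ UTR of Asb1-201. The 1213 nt that both share held 138 RPM per kb in the KO-named table against 115 in the het-named one, and the 3501 nt beyond it 169 and 140. Both of these regions were singled out after their values were seen.

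Some reads came from spliced RNA. Reads that cross an exon junction numbered 315 in Asb1, 144 in Ip6k1, 5 in Elk4 and 3 in Phf20. Upstream of the stop codon, where the junctions lie, they made up 5.23% of the Asb1 reads, against 9.71% if starts were spread evenly, and 7.84% of the Ip6k1 reads, against 7.73%. For Elk4 this was 3.13% against 6.61% and for Phf20 7.32% against 14.3%, from 160 and 41 reads upstream of the stop codon. Introns were not searched.

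The lengths set the genes apart. piRNAs of 26 to 28 nt, the size of those in MILI, are given as a share of reads of 26 to 31 nt. For Elk4 this share was 63.4% (61.0 to 65.8) in the KO-named table against 62.4% (59.9 to 64.8) in the het-named one. For Ip6k1 it was 45.5% (44.3 to 46.7) and 46.0% (44.8 to 47.1), and for Asb1 28.03% (27.6 to 28.5) and 28.3% (27.9 to 28.8). For Phf20 it was 68.9% (57.1 to 79.2) and 53.8% (43.1 to 64.4). The tables' intervals overlapped in each gene, while those of Elk4, Ip6k1 and Asb1 were apart from each other.

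The most frequent length was 27 nt for Elk4 in both tables, with 23.4% of reads in the KO-named table against 24.1% in the het-named one. It was 30 nt for Asb1, with 30.7% and 29.7%. Ip6k1 had a peak at 27 nt and one at 29 to 30 nt, the most frequent length being 30 nt in the KO-named table and 29 nt in its het-named partner. With 1-gene reads alone the most frequent Ip6k1 length was 30 nt and 27 nt, and 27 nt in the pooled tables. All reads of 24 to 32 nt had 39.8% and 40.5% of 26 to 28 nt. By reads, Elk4 was shorter than the reads at large and Asb1 longer, and most Asb1 reads had 29 to 31 nt although the gene is named a pre-pachytene source. With each distinct sequence counted once, the 26 to 28 nt share of Asb1 was 50.5% (49.0 to 51.9) in place of 28.2%, so the long forms were then no majority. The stage of the cells that made the reads cannot be read from these tables.

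**Figure D2:**
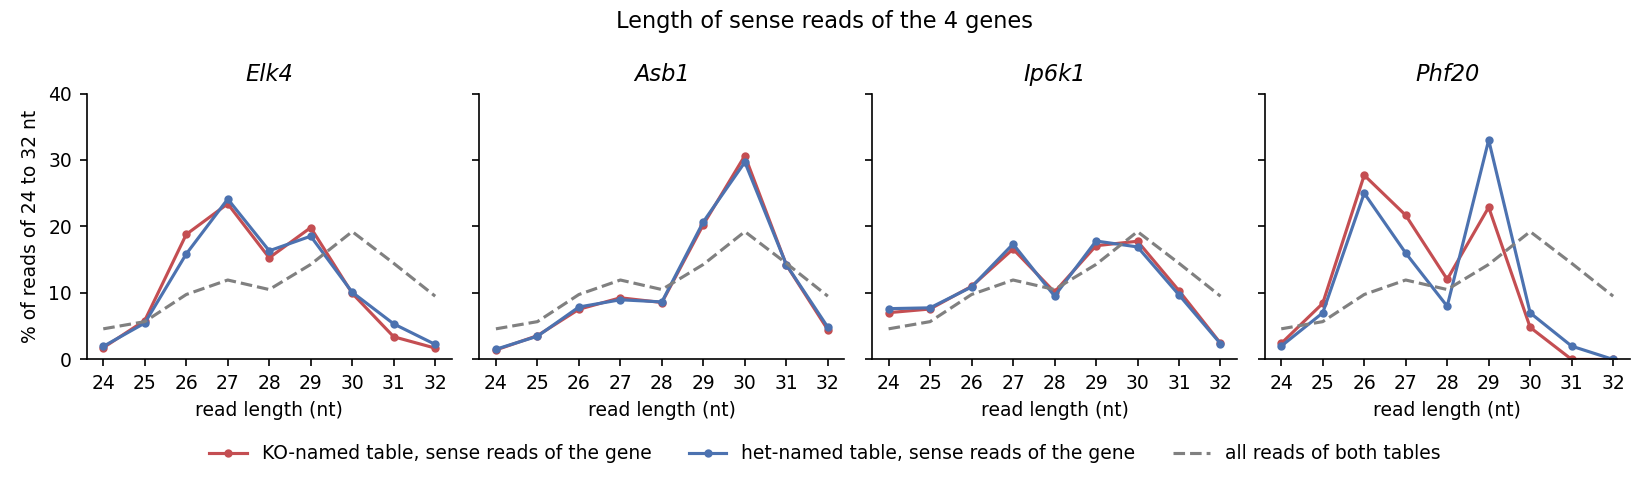
Length of sense reads of the 4 genes, as percent of their reads of 24 to 32 nt (y axis) against length in nt (x axis), for the KO-named (red) and het-named (blue) tables and all reads of both tables (grey, dashed). Elk4 is highest at 27 nt and Asb1 at 30 nt in both tables, and Ip6k1 has a peak on each side of 28 nt; Phf20 rests on 83 and 100 reads.

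Against coding genes with 1-gene reads, whose median share of 26 to 28 nt was 65.3%, 44 of 2334 had a lower share than Asb1, 299 a lower one than Ip6k1 and 1012 a lower one than Elk4. Over the 5571 coding genes with all matches the median was 54.3%, and 610 had a lower share than Asb1 (10.9%), 1917 a lower one than Ip6k1 and 3664 a lower one than Elk4, so that Elk4 lay below the first median and above the second. Of the other genic sources, with 1-gene reads, Nemp1 (25.6%) and Wdfy3 (30.7%) lay near Asb1, and Smyd5 (60.7%) near Elk4. Of the noncoding piRNA sources, also with 1-gene reads, Gm49794 had 60.4%, Gm21269 42.7% and 1700001L05Rik 47.1%. With all matches Gm49794 had 53.6%. The fraction of reads that would have to change length to turn one gene's length profile into another's was 0.0653 between Asb1 and Wdfy3, 0.101 between Asb1 and Nemp1 and 0.340 between Asb1 and Elk4. These distances count all matches.

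Length also differed along a transcript. In Asb1 52.3% (49.2 to 55.3) of the CDS reads had 26 to 28 nt, against 27.6% (27.3 to 27.95) in the 3′ UTR and 31.3% (29.9 to 32.7) in the 5′ UTR, much of which is CDS in other transcripts. In Ip6k1 the CDS had 59.2% (56.5 to 61.8) and the 3′ UTR 44.1% (43.1 to 45.1). In Elk4 the CDS had 64.0% and the 3′ UTR 61.5%, with overlapping intervals. Depth limits this for Phf20, with 36 reads in the CDS.

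Single starts had their own length. At the first Elk4 start, 91.2% of reads had 29 nt, although the gene as a whole was richest in 27 nt. At the first Asb1 start 89.7% had 30 nt. The first Ip6k1 start gave several forms, with 26.3% of reads at 27 nt, 39.4% at 30 nt and 14.4% at 25 nt. Among starts with at least 50 reads, 61 of 207 in Asb1 had a main form of 26 to 28 nt and 124 one of 29 to 31 nt. In Ip6k1 these were 15 and 17 of 33 starts, and in Elk4 4 and 2 of 6.

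**Figure D3:**
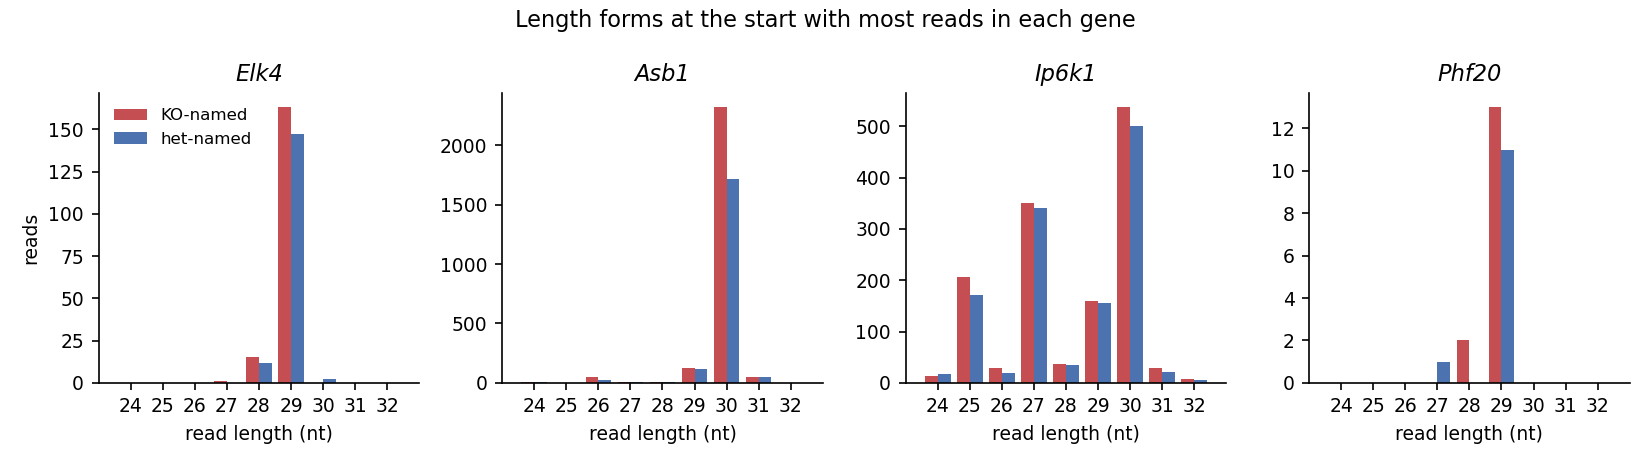
Reads of each length (x axis, nt) at the start with most reads in each gene, as counts (y axis, a scale of its own in each panel), for the KO-named (red) and het-named (blue) tables. Elk4, Asb1 and Phf20 have 1 main form, of 29, 30 and 29 nt, while Ip6k1 has forms of 25, 27 and 30 nt with 207, 351 and 537 reads in the KO-named table.

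Use of starts was uneven and, Phf20 aside, largely shared between the tables. Asb1 reads began at 2006 of 5826 transcript positions, those of Ip6k1 at 738, those of Elk4 at 563 and those of Phf20 at 84. The 10 starts with most reads held 33.6% of the Asb1 reads in the KO-named table against 31.3% in the het-named one, and 9 of these 10 were the same in both. For Ip6k1 they held 56.4% and 53.9%, with 9 in common, and for Elk4 38.6% and 32.7%, with 8 in common. For Phf20 only 3 of 10 were in common.

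Most reads of each gene began with U. The share was 93.5% (93.3 to 93.8) in the KO-named table against 93.4% (93.1 to 93.6) in the het-named one for Asb1, and 88.8% (87.2 to 90.2) and 87.0% (85.3 to 88.6) for Elk4. For Ip6k1 it was 86.8% (86.1 to 87.5) and 84.8% (84.1 to 85.6), and with 1-gene reads alone 92.6% and 91.7%. For Phf20 it was 80.7% (70.6 to 88.6) and 76.0% (66.4 to 84.0). All reads of 24 to 32 nt had 78.8% and 73.6%, so the KO-named table was the higher one there too. These shares stood above the T content of the transcripts: T made up 29.2% of the Asb1 transcript, 26.5% of that of Elk4, 24.3% of that of Ip6k1 and 24.5% of that of Phf20.

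By first base, 36 of 2334 coding genes had a higher U share than Asb1, 74 a higher one than Ip6k1 and 440 a higher one than Elk4, all with 1-gene reads. With all matches, over 5571 genes, these were 170, 1290 and 876. Reads of highly expressed mRNAs, taken from a list of 10 such genes, had with all matches a median U share of 48.1% over the 9 genes measured. Their median 26 to 28 nt share was 67.0%. Of the Rpl3 reads 4.37% had 1 gene, and of the Ldhc reads 100%. Ldhc had the highest U share of these genes, 79.3%, and the lowest 26 to 28 nt share, 54.7%. Of the starts with at least 50 reads, 193 of 207 in Asb1, 32 of 33 in Ip6k1 and 6 of 6 in Elk4 began with U. In Ip6k1 the U share was 54.2% in the 5′ UTR, 81.2% in the CDS and 92.8% in the 3′ UTR. Many of its 5′ UTR and CDS reads also matched other genes, and its reads with 2 to 10 genes began with U in 76.9%. Their part in this contrast was not tested.

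**Figure D4:**
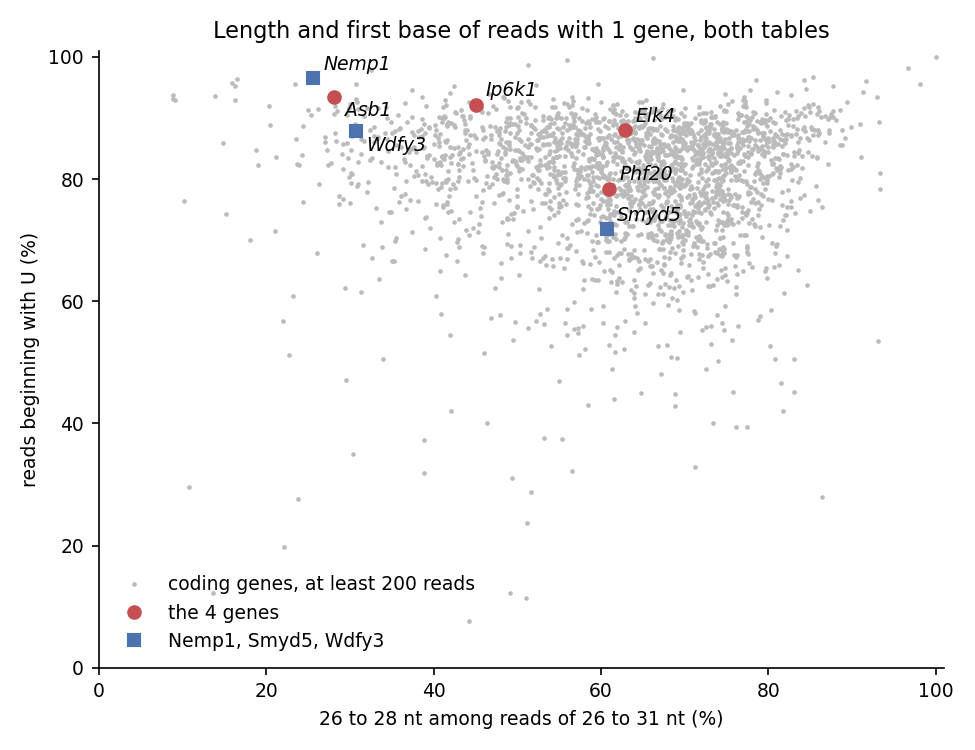
Share of 1-gene reads beginning with U (y axis, %) against the share of 26 to 28 nt among reads of 26 to 31 nt (x axis, %), both tables pooled; grey points are 2334 coding genes with at least 200 reads, red points the 4 genes and blue squares Nemp1, Smyd5 and Wdfy3. Asb1, at 28.2% and 93.4%, lies beside Nemp1 and Wdfy3, and Elk4, at 62.9% and 88.0%, lies among most coding genes.

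Signs of cutting were looked at next. In phased piRNA making, 1 cut sets the end of one piRNA and the start of the next, so the base after an untrimmed end is often U. A read whose end was trimmed after the cut would not show this. The values below therefore cannot tell whether phased cutting took place. The base after the end of the read was U for 37.2% (35.4 to 39.0) of the pooled Elk4 reads, where 26.5% of the transcript is T, and for 36.7% (35.9 to 37.6) of the Ip6k1 reads, where T is 24.3%. For Asb1 it was 28.4% (28.1 to 28.7) with 29.2% T, and for Phf20 22.5% (15.8 to 30.3) with 24.5% T. Elk4 and Ip6k1 were above their transcripts' T and Asb1 was below it. Single sequences weighed on this. The first Elk4 read shown, which U follows, gave 163 of 538 such reads in the KO-named table and 147 of 503 in the het-named one. The first Ip6k1 read gave 537 of 2289 and 500 of 2272. In the 3′ UTR, where most reads lie, T made up 29.3% in Elk4, 27.2% in Ip6k1 and 31.1% in Asb1. The last base of the read itself was U more often than the base after it in these 3 genes, at 46.0% in Elk4, 45.0% in Ip6k1 and 40.5% in Asb1. The U after the end thus did not stand out from the neighbour before it. At the next base beyond, U was less frequent, at 17.3% in Elk4, 30.8% in Ip6k1 and 27.3% in Asb1. The first read shown of each of these 3 genes ends in U, so single sequences weighed on the last base too. Weighted by reads, the next start came directly after an end in 0.553% of Elk4, 1.81% of Asb1, 1.15% of Ip6k1 and 2.01% of Phf20 pairs within 50 nt, and in none of them was this the most frequent distance. With each position counted once, Elk4 had 2.27% at this distance, rank 2 of 50 against a median of 2.03% at the others, and Asb1, Ip6k1 and Phf20 ranked 19, 22 and 20.

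Adenine at base 10, the mark of reads made opposite a read that begins with U, was found in 25.2% of the Elk4, 25.7% of the Asb1, 25.8% of the Ip6k1 and 25.1% of the Phf20 sense reads of both tables pooled. All reads had 29.7%, a value that the interval of Phf20 (19.03 to 32.1) includes. By table, Elk4 had 22.5% (20.6 to 24.5) in the KO-named and 27.99% (25.9 to 30.2) in its het-named partner, with intervals apart. Asb1 had 25.3% and 26.1%, Ip6k1 24.9% and 26.6%, and Phf20 22.9% and 27%, so each gene was lower in the KO-named table. This was not particular to them, as all reads had 29.6% and 29.9%. Nemp1, Wdfy3, Gm49794, Gm21269 and 1700001L05Rik were lower there too, while Smyd5 was higher.

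Antisense reads were few or shared with other genes. Elk4 had 17 in the KO-named table against 12 in the het-named one, all with 1 gene. Of these, 72.4% had A at base 10 and 44.8% began with U. Phf20 had 4 and 1 antisense reads. Asb1 had 572 (10.5 RPM) in the KO-named table against 944 (15.0 RPM) in the het-named one, of which only 1 matched no other gene. Those on Asb1-201 numbered 571 and 944, lay 2125 to 4205 nt after the stop codon, each matched 4 to 60 genes, and 66.1% began at a single position. They had U first in 90.5% and A at base 10 in 94.0%, and 31.2% of the pairs they formed with sense reads at overlaps of 1 to 20 nt had the overlap of 10 nt that paired cutting leaves. That share rests on few sense reads. The position with most antisense reads, 1002, faced 11 sense reads at this overlap, and another with 348 faced 11. Since the antisense reads match many genes, their source cannot be placed in Asb1. Ip6k1 had 1815 and 1126 antisense reads, of which 38 had 1 gene and 36 lay on the transcript used.

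Between the tables, the reads of 3 genes were slightly higher in the KO-named table by RPM. The RPM ratio, KO-named to het-named, was 1.21 (1.13 to 1.29) for Elk4, 1.19 (1.17 to 1.21) for Asb1 and 1.08 (1.05 to 1.12) for Ip6k1, or 1.17 (1.12 to 1.21) with 1-gene reads; per miRNA read these were 1.02, 1.003 and 0.914, so that Ip6k1 turned to the lower side. For Phf20 the ratio was 0.958 (0.707 to 1.29), and a difference was not detectable at this depth. None of the 4 genes was past a log2 ratio of 1 in size, which 0.180% of the 5571 coding genes and, with 1-gene reads, 0.0428% of 2334 had passed. The median ratio of the 2334 coding genes was 1.18 (log2 0.24), with all but the lowest and highest 5% between 0.942 and 1.43. Relative to that median, with 1-gene reads, Elk4 stood at a log2 of 0.03, Asb1 at 0.01 and Ip6k1 at −0.02. Over the 5571 genes with all matches the median log2 was 0.12, and relative to it Elk4 stood at 0.15, Asb1 at 0.13 and Ip6k1 at −0.005. Counting against miRNA reads moves every log2 ratio by −0.25, and the median coding gene then stood at 0.00. The difference of the tables in short RNA moves with these ratios, and its part in them was not tested.

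Of the other genic sources, Nemp1 lay among the 4 genes, and Wdfy3 lay below Elk4, Asb1 and Ip6k1. Nemp1 had 113783 sense reads in the KO-named table against 112214 in the het-named one, a ratio of 1.17, and Wdfy3 6787 and 8719, a ratio of 0.898 (0.870 to 0.928). Smyd5 had 125 and 166, a ratio of 0.869 (0.684 to 1.10). With 1-gene reads, 69 of 2334 coding genes had a lower ratio than Wdfy3, while 1384 had a lower one than Elk4, 1216 than Asb1 and 1058 than Ip6k1.

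By region, with reads of any first base, the ratio was higher in the 3′ UTR than in all sequence upstream of the stop codon in each gene. This was beyond counting error in Asb1 and Ip6k1. In Asb1 the 3′ UTR had 41271 reads in the KO-named table against 39647 in the het-named one, a ratio of 1.20 (1.19 to 1.22), and the part upstream 2869 and 3156, a ratio of 1.05 (0.997 to 1.10). In Ip6k1 the 3′ UTR ratio was 1.19 (1.14 to 1.23) and the upstream ratio 1.05 (0.956 to 1.15). In Elk4 they were 1.20 (1.11 to 1.29) and 1.13 (0.815 to 1.55), and in Phf20 1.33 (0.878 to 2.03) and 0.818 (0.412 to 1.59). The 3′ UTR ratio divided by the upstream ratio was 1.15 (1.09 to 1.21) in Asb1, 1.13 (1.02 to 1.25) in Ip6k1, 1.06 (0.764 to 1.49) in Elk4 and 1.63 (0.733 to 3.67) in Phf20. The 5′ UTR alone went the other way in Ip6k1, with a ratio of 1.39 (1.05 to 1.84) from 118 and 98 reads, and in Elk4, with 8 and 3 reads. The 3′ UTR ratio divided by that of the 5′ UTR was 0.853 (0.644 to 1.13) in Ip6k1 and, by that of the CDS, 1.17 (1.06 to 1.31). Many Ip6k1 reads upstream of the stop codon also matched other genes, and its reads with 2 to 10 genes had a ratio of 1.07 (0.957 to 1.19). Their part in the Ip6k1 contrast was not tested. Among reads that do not begin with U, only Phf20 was higher in the 3′ UTR, at 1.15 against 0.630 upstream. These ratios were 1.16 and 1.17 in Asb1, 0.997 and 1.13 in Ip6k1, and 1.08 and 1.15 in Elk4. Their intervals overlapped in each gene. Per miRNA read all ratios by region fall by the same factor and keep their order.

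**Figure D5:**
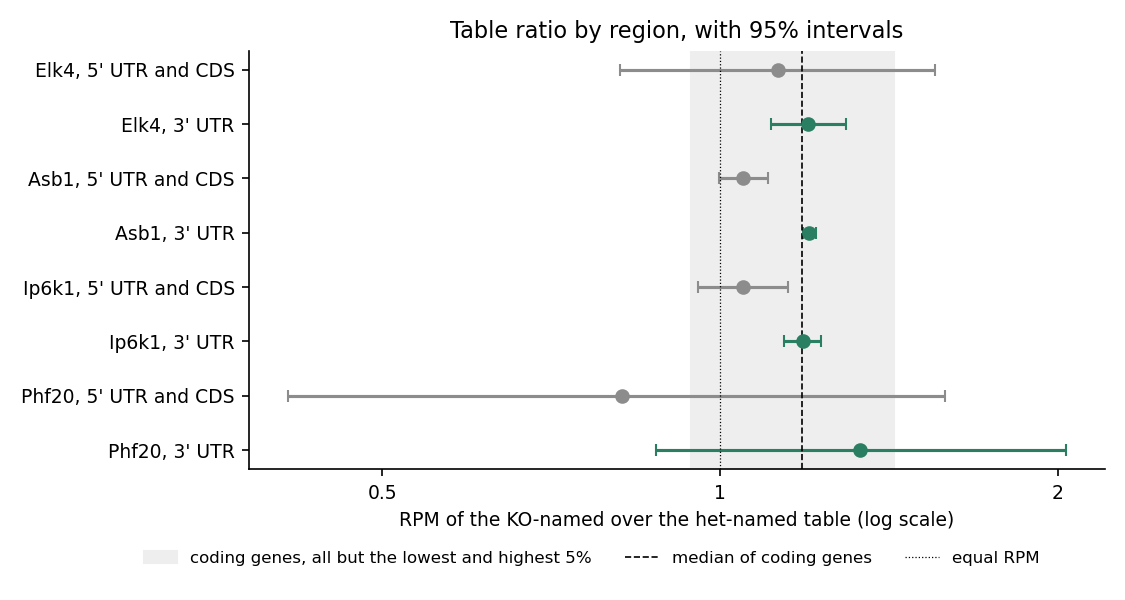
RPM ratio, KO-named to het-named table, (x axis, log scale) for reads of the 5′ UTR and CDS (grey) and of the 3′ UTR (green) of each gene, with exact 95% intervals of counting error. The dashed line is the median of 2334 coding genes (1.18), the shaded band 0.942 to 1.43; all 8 ratios are relative to all reads, and per miRNA read the median coding gene lies at a log2 of 0.00.

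Within the Asb1 3′ UTR the ratio was 1.26 (1.24 to 1.29) in the middle part, 1.16 (1.13 to 1.19) in the first and 1.10 (1.07 to 1.14) in the last. In Ip6k1 it was 1.23 (1.17 to 1.30) in the middle part, 1.15 (1.07 to 1.23) in the first and 1.08 (0.977 to 1.20) in the last. In Elk4 the order differed, with 0.993 (0.812 to 1.21) in the middle part, 1.14 (0.944 to 1.36) in the first and 1.27 (1.16 to 1.40) in the last. In each of these 3 genes the highest ratio was in the part with most reads. The single start with most Asb1 reads had 2572 reads in the KO-named table against 1936 in the het-named one, a ratio of 1.53 (1.45 to 1.63). It lay above the ratio of the whole gene by more than counting error, and with 1 library per table it cannot be told whether it differs between animals.

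By length, the table ratios at 26 to 28 nt and at 29 to 31 nt had overlapping intervals in each gene. The ratio of Asb1 reads was 1.18 (1.15 to 1.22) at 26 to 28 nt and 1.20 (1.18 to 1.22) at 29 to 31 nt, while at 32 nt it was lower, 1.10 (1.03 to 1.17), with an interval apart from that of 29 to 31 nt. For Elk4 these were 1.23 (1.13 to 1.35) and 1.18 (1.05 to 1.32), and for Ip6k1 1.08 (1.03 to 1.14) and 1.10 (1.06 to 1.15). Phf20 had 51 and 49 reads of 26 to 28 nt and 23 and 42 of 29 to 31 nt. By first base, Ip6k1 reads that begin with U had a ratio of 1.11 (1.07 to 1.15) and those that do not 0.943 (0.870 to 1.02). These intervals were apart; in the 3′ UTR of the chosen transcript the ratios were 1.20 (1.15 to 1.25) and 0.997 (0.863 to 1.15). For all Asb1 reads the ratios were 1.19 (1.18 to 1.21) and 1.16 (1.10 to 1.22), with overlapping intervals.

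Coding genes of at least 1000 reads were ranked by how near their shares of reads over 24 to 32 nt came to the mean of the 4 genes, each with equal weight and both tables pooled; the distance is the fraction of reads that would have to change length. The nearest of 2922 were Slc5a3, a myo-inositol transporter gene, at a distance of 0.055, Tnks, which encodes tankyrase, at 0.066, and Eif4ebp2, an inhibitor of translation initiation, at 0.074. Cbfa2t2 followed at 0.075 and Tdg at 0.076. Of their reads, 93.5% in Slc5a3, 96.2% in Tnks, 94.1% in Eif4ebp2, 98.5% in Cbfa2t2 and 50.3% in Tdg began in the 3′ UTR. The ranking did not use this measure, but its median was already 84.4% over the 2925 coding genes with at least 1000 reads. Phf20, with 183 reads, weighed as much in the mean as the other genes. In Tdg 18.1% of reads had 1 gene. Ranked against each gene alone, other genes were nearest, and their 3′ UTR shares varied widely. The nearest to Elk4 was Zfp369 (2.41%), to Asb1 Vmn1r76 (100%), to Ip6k1 Capza2 (39.0%) and to Phf20 Hist1h2bf (0.161%). The next nearest lay between 0.0443% (Gm12394) and 99.5% (Gm42372). Genes of the piRNA pathway, from a list of 17, gave 9 with at least 200 reads when all matches count, and 8 with 1-gene reads, since Pnldc1 had 27 reads with 1 gene of 3396. The 9 had a median U share of 74.6% and a median log2 ratio of 0.26; 7 had a ratio above 1 and 2 below, and 0 of them were past a log2 of 1 in size. Of the 9 measured genes of the highly expressed list, 5 had a ratio above 1 and 4 below. Most of the 5571 coding genes also had a ratio above 1. Their median log2 was 0.12, Pnldc1 at −0.02 ranked 4082 from the highest, and 0.180% were past a log2 of 1 in size. These counts therefore set neither list apart.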

How the data were processed

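Each deposited table holds raw read counts per distinct sequence, with no scaling, as the values show and with no file header. Per the labels' protocols, Trizol RNA was run on a 15% gel and RNA of 15 to 40 nt made into directional TruSeq libraries. Adapter trimming, length filter and any alignment by the authors: not given in the sources used here. A shift in read lengths kept would move RPM values of all piRNAs together.

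Reads of 24 to 32 nt were matched with 0 mismatches, on both strands, to GENCODE M21 transcripts (GRCm38). Each read counted in full for every gene it matched. A genome was not used here, so introns and unannotated places were not searched. Position is that of the read's first base, and the 3′ UTR includes the stop codon. Shares and RPM carry Clopper-Pearson intervals, ratios the conditional binomial interval, ratios of ratios that of the conditional odds ratio, and log2 ratios of genes had 0.5 reads added. With 1 library per table no test was run. Matching and intervals were tested on simulated data. Alternatives were other totals, 1-gene reads, distinct sequences, 26 to 31 nt, other transcripts and the 3′ UTR alone. The genes shown were the 4 members, the list genes, the 5 nearest in profile and some of those nearest to each member alone. The reads shown were those at the 3 starts with most reads. The members and lists were chosen with earlier results of these data known. Python 3.11.15, numpy 2.4.6, pandas 2.3.3, scipy 1.17.1, numba 0.67.0 and matplotlib 3.10.9 were used.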

Additional observations from a re-analysis of the deposited data

Results flagged for a closer look

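Reads of 18 to 23 nt lay outside the lengths compared, and those with 1 gene stood above the limit of 3 reads in every gene and table. Elk4 had 43 in the KO-named table against 44 in the het-named one, Asb1 946 and 1190, Ip6k1 151 and 186, and Phf20 6 and 11. For Asb1 this is 17.4 and 18.96 RPM, a ratio of 0.918 (0.842 to 1.0002), and 86.2% of these reads began with U. Their part in the results was not tested.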

How the results depend on the processing

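Of 64 alternative values, 35 stayed inside the reported 95% interval, 28 moved out of it and 1 reversed. With reads of 24 to 32 nt as the total, the table ratio became 1.12 for Asb1 and 1.02 for Ip6k1. With miRNA reads as the total it became 1.02 for Elk4, 1.003 for Asb1 and, reversed, 0.914 for Ip6k1; all ratios fall by one factor by construction. With 1-gene reads, Ip6k1 had a ratio of 1.17, a 3′ UTR share of 93.3% and a U share of 92.2%, and Phf20 a 3′ UTR share of 80.8%. On the chosen transcript alone, an alternative added after seeing the data like the CDS of any coding transcript, Ip6k1 had a ratio of 1.16. With distinct sequences in place of reads, for Elk4, Asb1 and Ip6k1 the ratio was 1.04, 1.08 and 1.03. The 3′ UTR share was then 89.2%, 86.8%, 66.0% and, for Phf20, 60.2%, the 26 to 28 nt share 65.4%, 50.5%, 58.4% and 75%, and the U share 75.7%, 68.0%, 65.9% and 67.5%. In the 3′ UTR alone the 26 to 28 nt share was 27.6% for Asb1 and 44.1% for Ip6k1. At 26 to 31 nt the U share was 93.8% for Asb1 and 86.9% for Ip6k1. The cause of these moves was not tested. No paired analysis was possible because each table is 1 library. Depth limits Phf20, with 183 reads in all.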
